A study of Mus musculus with 6 samples.

Results

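The matrix metalloproteinases (MMPs), the ADAMTS proteases with their protease-free ADAMTSL relatives, and the tissue inhibitors of metalloproteinases (TIMPs) were examined in newborn heart ventricles, from mice aged 2 days (P2, 3 libraries) and 1 day (P1, 3 libraries). Members were the protein-coding genes named Mmp, Adamts, Adamtsl or Timp with a number: 50 of the 39171 genes in the table, made up of 22 Mmp, 19 Adamts, 5 Adamtsl and 4 Timp genes. All mice were wild type and of the outbred CD-1 strain, the labels name no treatment, and age is the only labelled difference between the groups. Poly(A) RNA was sequenced, and levels are in FPKM, a fragment count set relative to transcript length and library size. Each library comes from whole ventricular tissue, in which fewer cells of a type and less RNA per cell cannot be told apart. The labels speak of 3 hearts for each age but do not name an animal for a library, and p-values therefore rest on a spread among libraries that may be technical.

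MMPs are zinc-dependent enzymes, secreted or held at the cell surface, that cleave collagens, laminins and other matrix proteins and are made as inactive proforms. ADAMTS enzymes are secreted, carry thrombospondin repeats, and include cleavers of versican and aggrecan, procollagen-processing enzymes and proteases tied to fibrillin microfibrils. TIMPs bind the active site of these enzymes, and in the newborn heart the families act on a matrix that is changing from a provisional, versican-rich form to a collagenous one.

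Ventricular identity and library quality were read from lists of cell type markers. Of 13 ventricular cardiomyocyte markers, Myh6, Actc1 and Myl2 were listed at 0 in every library and Tnnt2 in every P1 library, so an exact 0 in this table can be an estimate that failed. The other 9 lay above 70 FPKM in each library. Of 7 atrial markers 6 had lower values in P2 and 1, Bmp10, was called; they summed to between 554 and 785 FPKM in P2 and between 961 and 1511 FPKM in P1, and their part in the results below was not tested. The FPKM sum per library was higher in P2 (807632 to 858436) than in P1 (716968 to 754510), and read counts, and so the depth, are unknown.

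Most ADAMTS, ADAMTSL and TIMP genes were above a low threshold in the newborn ventricle, whereas most MMP genes lay below it. A mean of at least 1 FPKM over the 6 libraries, the filter for testing, was reached by 31 of the 50 members: 7 of 22 Mmp, 15 of 19 Adamts, all 5 Adamtsl and all 4 Timp genes. Of the 19 members below it, 8 lay between 0.1 and 1 FPKM, 9 were above 0 and below 0.1 FPKM, and 2 were listed at 0 in all libraries. The highest level was that of Mmp15, a transmembrane MMP, with a mean of 62.0 FPKM that stood at or above 90.6% of the 13624 genes tested. Next came Mmp2, the gelatinase that degrades denatured and basement membrane collagen (55.0 FPKM), Timp2 (53.8 FPKM) and Mmp14 (44.4 FPKM). Mmp14 encodes the membrane protease that, with TIMP2 as a bridge, activates the Mmp2 proform.

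**Figure D1:**
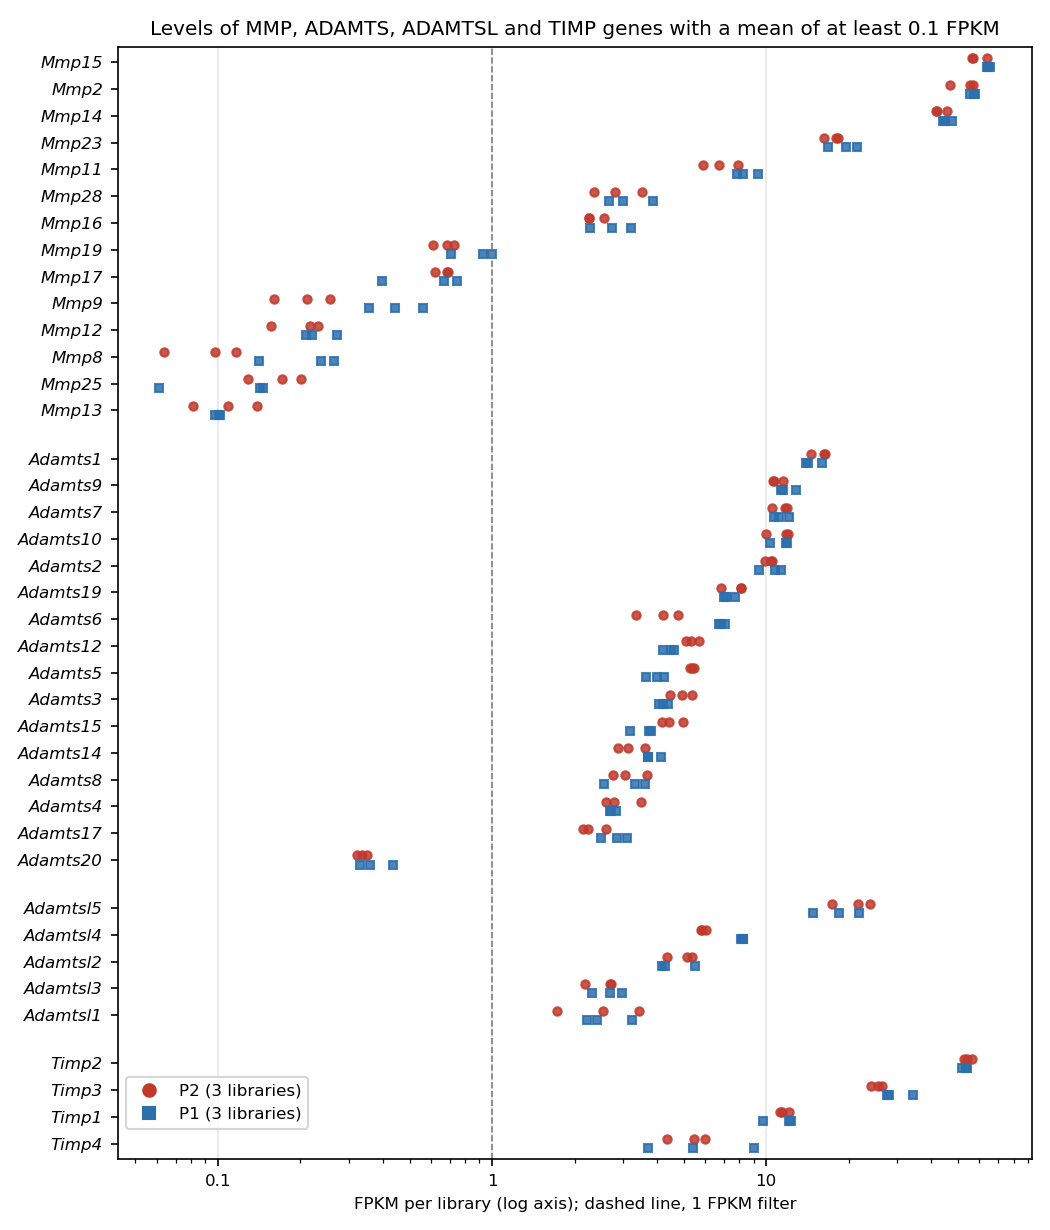
Levels of the 39 members with a mean of at least 0.1 FPKM, by family, with 3 P2 libraries as red circles above 3 P1 libraries as blue squares, on a log axis in FPKM. The dashed line is the 1 FPKM filter. Mmp15, Mmp2, Mmp14 and Timp2 lie at the right, while Mmp19 and Mmp17 sit just left of the line.

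One member was called between the ages. Adamtsl4 fell, at a Benjamini-Hochberg adjusted p under 0.05 in limma over all genes tested, and no member rose. Over all genes tested, 0.0734% were called higher and 0.0881% lower in P2 (0.161% in either direction). With equal FPKM sums, a scaling that put the median of all genes at -0.14 (log2), the calls over all genes were 39 higher and 2394 lower in place of 10 and 12, and 9 members were called lower. All P2 libraries lay above all P1 libraries for 4 of the 31 tested members (12.9%, against 14.4% of all genes tested) and below them for 4 (12.9%, against 10.6%), shares near the background, which in either direction is 25.0%. An unadjusted limma p under 0.05 was reached by 9 members, 4 higher and 5 lower in P2 (29.0%, against 18.6% of all genes tested, of which 10.7% were higher and 7.89% lower). The median log2 change of the 31 members was -0.04, against 0.01 over all genes tested, with the largest decrease for Adamts6 (-0.64) and the largest increase for Adamts5 (0.36), neither of them called. All log2 changes are P2 minus P1 of log2(FPKM + 1), and this scale makes changes of low genes look smaller than they are.

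**Figure D2:**
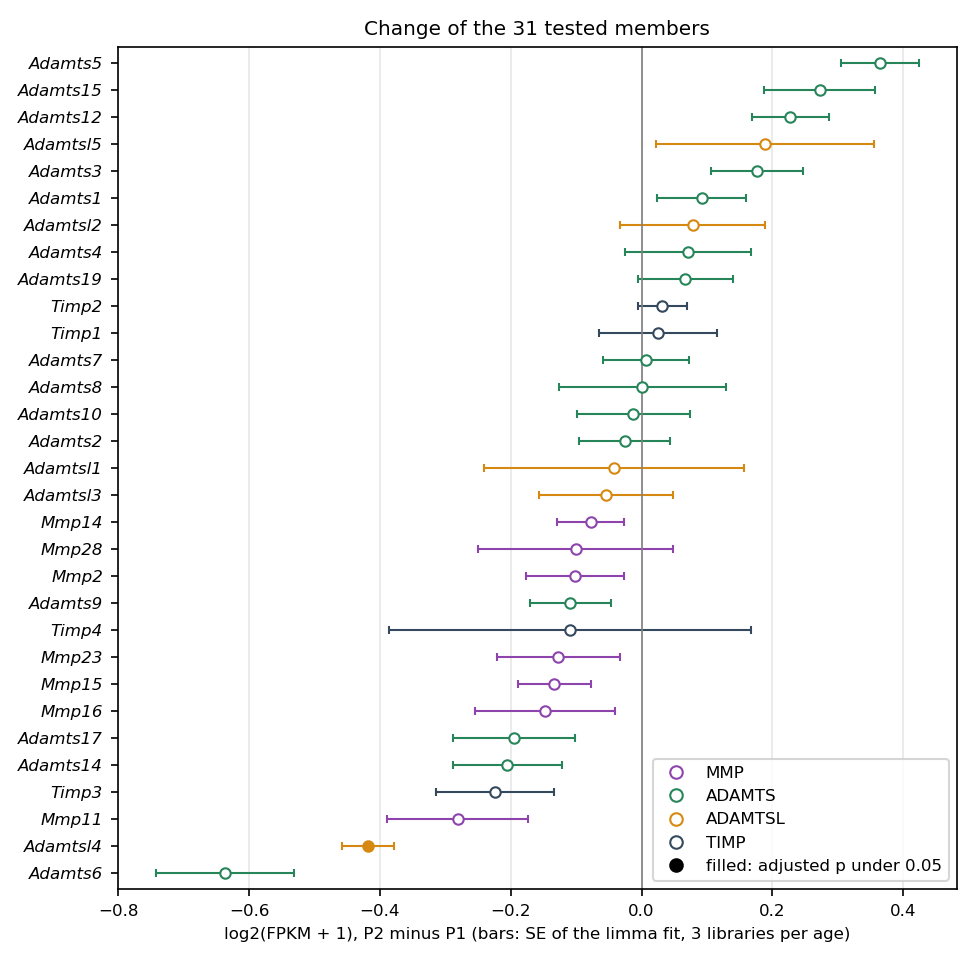
The log2 change, P2 minus P1 on the log2(FPKM + 1) scale, of the 31 tested members, sorted by size, with the SE of the limma fit (3 libraries per age) as bars and the family by colour. Adamtsl4, at -0.42, is the only filled point, which marks an adjusted p under 0.05; Adamts6 and Adamts5 hold the ends of the scale at -0.64 and 0.36.

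Adamtsl4 (ENSMUSG00000015850; chromosome 3, 95676201 to 95687917 on the minus strand in the GENCODE M21 annotation of GRCm38) encodes a secreted, protease-free glycoprotein that binds fibrillin microfibrils. It was at 5.78, 6.06 and 5.83 FPKM in the P2 libraries, against 8.13, 8.21 and 8.27 FPKM in the P1 libraries. The ages did not overlap, and the gap between them was wider than the whole range within either age. The log2 change was -0.42 ± 0.04 (SE; limma, Benjamini-Hochberg adjusted p = 0.0306). The call was lost with no filter on low values (adjusted p = 0.0735) and without any 1 library (adjusted p from 0.112 to 0.203), while the log2 change stayed between -0.44 and -0.41 when a library was left out. No annotated gene overlaps Adamtsl4.

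The other ADAMTSL genes, whose products also lack a protease domain, overlapped between the ages. Adamtsl5 was the highest of the family, at 21.6, 24.0 and 17.4 FPKM in P2, against 18.4, 14.8 and 21.9 FPKM in P1, so its libraries interleaved (log2 change 0.19 ± 0.17, and 0.05 without P1 replicate 2; limma adjusted p = 0.578). Adamtsl2, a microfibril-associated protein mutated in a human skeletal dysplasia, averaged 4.95 ± 0.515 FPKM in P2 and 4.65 ± 0.725 FPKM in P1 (SD, n = 3 each). Adamtsl3 averaged 2.53 ± 0.303 FPKM in P2 and 2.67 ± 0.338 FPKM in P1. Adamtsl1 was the most scattered of the 5 in P2, with 2.57 ± 0.854 FPKM, against 2.63 ± 0.545 FPKM in P1. The log2 changes of these 3 were 0.08 ± 0.11 for Adamtsl2, -0.05 ± 0.10 for Adamtsl3 and -0.04 ± 0.20 for Adamtsl1, and their signs moved with the scaling or with 1 library left out.

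Among ADAMTS genes, 15 were tested, 9 with a positive and 6 with a negative log2 change, and none was called. One of the 9, Adamts8, had a log2 change of 0.00 and a mean FPKM that was marginally lower in P2. Adamts6, a close relative of Adamts10, is tied to fibrillin microfibrils, and its loss in mice causes heart defects. It was at 3.34, 4.21 and 4.76 FPKM in P2, against 6.87, 6.71 and 7.09 FPKM in P1. All P2 libraries lay below all P1 libraries, and the spread in P2 (SD 0.715 FPKM) was wider than in P1 (0.188 FPKM). The log2 change of -0.64 ± 0.11 missed the threshold (limma, Benjamini-Hochberg adjusted p = 0.102), and it passed when genes listed at 0 in any library were left out (adjusted p = 0.0378; this alternative was added with the data in view) or with equal FPKM sums (0.0227). Adamts10, which lies at a higher level, averaged 11.3 ± 1.13 FPKM in P2 and 11.4 ± 0.880 FPKM in P1, with a log2 change of -0.01 ± 0.09.

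The ADAMTS proteoglycanases cleave versican and aggrecan, the large chondroitin sulphate proteoglycans. Adamts5, which remodels versican in the developing heart valves of mice, was at 5.27, 5.46 and 5.37 FPKM in P2, against 3.995, 3.63 and 4.23 FPKM in P1. The ages did not overlap for Adamts5, and its log2 change of 0.36 ± 0.06 was not called (limma, Benjamini-Hochberg adjusted p = 0.101). Adamts15 was at 4.16, 4.43 and 4.98 FPKM in P2, against 3.73, 3.18 and 3.81 FPKM in P1, again without overlap (log2 change 0.27 ± 0.08; limma adjusted p = 0.191). Adamts1, the highest ADAMTS gene, was at 14.6, 16.4 and 16.3 FPKM in P2, against 15.98, 14.2 and 14.0 FPKM in P1, and its libraries overlapped (log2 change 0.09 ± 0.07). Adamts9 was at 10.6, 10.7 and 11.6 FPKM in P2, against 11.3, 11.5 and 12.9 FPKM in P1, with a log2 change of -0.11 ± 0.06. Adamts4 (2.96 ± 0.481 FPKM in P2 and 2.75 ± 0.0709 FPKM in P1) and Adamts8 (3.17 ± 0.466 FPKM in P2 and 3.18 ± 0.548 FPKM in P1) also overlapped between the ages, with log2 changes of 0.07 ± 0.10 for Adamts4 and 0.00 ± 0.13 for Adamts8. Of the 7 proteoglycanases only Adamts20 was below the filter, and of the 6 tested Adamts9 had a negative log2 change, Adamts8 one of 0.00 and the others a positive one. With equal FPKM sums Adamts1, Adamts4 and Adamts8 had negative values, as had Adamts8 with median ratio scaling and quantile normalization. Equal FPKM sums put Adamts5 at 0.22 and Adamts15 at 0.13.

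Adamts1 and Adamts5 lie side by side on chromosome 16 with 53.1 kb between them, and Adamts15 and Adamts8 lie on chromosome 9 with 20.1 kb between them. In each of these neighbouring pairs the ages were separated for one gene, Adamts5 or Adamts15, and overlapped for the other. Whether the members of a pair differ in their change was not tested.

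The procollagen N-proteinases remove the amino-terminal propeptide of fibrillar procollagens, and Adamts3 also takes part in the processing of the lymphatic growth factor VEGF-C. Adamts3 was at 4.92, 5.35 and 4.45 FPKM in P2, against 4.06, 4.20 and 4.39 FPKM in P1. Adamts14 was at 3.14, 2.89 and 3.61 FPKM in P2, against 3.70, 3.70 and 4.15 FPKM in P1. The ages did not overlap for either gene, with P2 above P1 for Adamts3 (log2 change 0.18 ± 0.07) and below it for Adamts14 (-0.21 ± 0.08), but the separation was narrow, and neither was called (limma adjusted p = 0.258 for Adamts3 and 0.265 for Adamts14). With equal FPKM sums the log2 change of Adamts3 was 0.04. Adamts2, the highest of the group, averaged 10.3 ± 0.326 FPKM in P2 and 10.5 ± 0.972 FPKM in P1 (log2 change -0.03 ± 0.07).

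Adamts7 and Adamts12 form a related pair that cleaves cartilage oligomeric matrix protein, and whether their changes differ was not tested. Adamts12 was at 5.34, 5.09 and 5.70 FPKM in P2, against 4.63, 4.21 and 4.50 FPKM in P1, with no overlap (log2 change 0.23 ± 0.06; limma, Benjamini-Hochberg adjusted p = 0.157), and a log2 change of 0.08 with equal FPKM sums. Adamts7 averaged 11.4 ± 0.757 FPKM in P2 and 11.3 ± 0.715 FPKM in P1, with a log2 change of 0.01 ± 0.07 that was negative with median ratio scaling, quantile normalization and equal FPKM sums. Adamts19, whose loss causes heart valve disease in humans and mice, averaged 7.69 ± 0.716 FPKM in P2 and 7.28 ± 0.350 FPKM in P1 (log2 change 0.07 ± 0.07). Adamts17 averaged 2.34 ± 0.247 FPKM in P2 and 2.82 ± 0.312 FPKM in P1 (log2 change -0.19 ± 0.09). Adamts13, the von Willebrand factor protease made mainly in liver, and Adamts16 and Adamts18 were each below 0.1 FPKM on average, and Adamts20 averaged 0.354 FPKM.

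**Figure D3:**
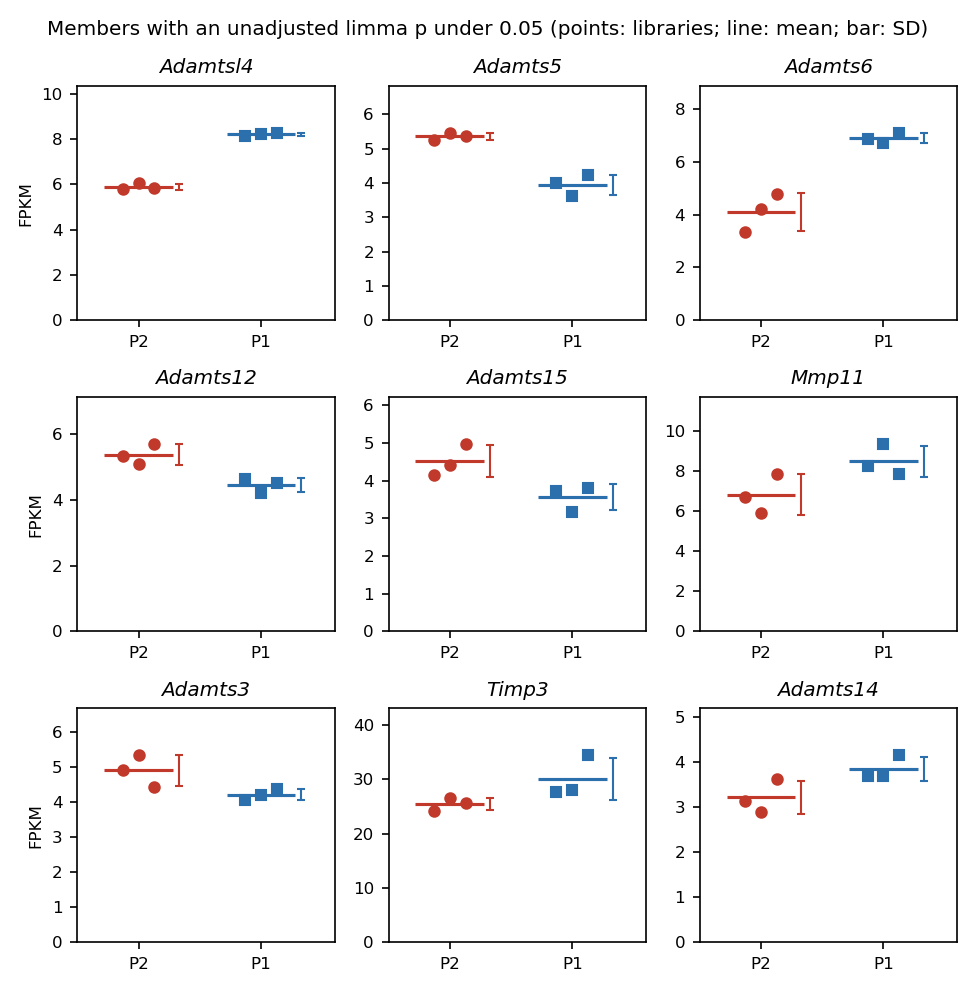
FPKM in each library (points), with the mean (line) and SD (bar, n = 3), of the 9 members with an unadjusted limma p under 0.05, P2 in red left of P1 in blue, with axes that start at 0. The ages are separated for 8 of the 9, which the choice of genes by p-value favours, and the libraries of Mmp11 overlap. Without such a choice, 25.0% of all genes tested are separated.

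All 7 tested MMP genes had a lower value in P2, with a median log2 change of -0.13, against 0.01 over all genes tested, of which 45.3% were lower. None of the 7 was called, and the ages overlapped for each. The median of these 7 was between -0.16 and -0.08 without any 1 library, and between -0.14 and -0.13 with a pseudocount of 0.1, median ratio scaling or quantile normalization. With equal FPKM sums it was -0.27, against -0.14 for all genes tested. With no filter on low values, 12 of the 20 MMP genes above 0 in any library had a negative log2 change, with a median of -0.06. The shared direction was thus seen only for the 7 genes above the filter. The added genes average below 1 FPKM, 6 of them below 0.1 FPKM, where a sign says little. The direction of the family as a whole cannot be told. Mmp28 had positive values of 0.01 without P1 replicate 3 and 0.00 without P2 replicate 2.

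Mmp15 was at 56.3, 64.0 and 57.0 FPKM in P2, against 64.6, 65.9 and 64.0 FPKM in P1. P2 replicate 2 lay within the P1 range, and the other two libraries below it (log2 change -0.13 ± 0.06; limma adjusted p = 0.276). Mmp2 was at 55.5, 47.0 and 56.8 FPKM in P2, against 57.7, 55.6 and 57.2 FPKM in P1, where P2 replicate 2 was the low value (log2 change -0.10 ± 0.08, and -0.02 without that library). Mmp14 averaged 43.2 ± 2.26 FPKM in P2 and 45.6 ± 1.83 FPKM in P1 (log2 change -0.08 ± 0.05, and -0.05 without P1 replicate 1). Mmp16, a further transmembrane MMP and the tested member nearest the filter, was at 2.26, 2.26 and 2.57 FPKM in P2, against 2.73, 3.22 and 2.28 FPKM in P1 (log2 change -0.15 ± 0.11, and -0.06 without P1 replicate 2). Mmp23, an MMP anchored at its amino terminus that lacks the hemopexin domain, averaged 17.5 ± 1.13 FPKM in P2 and 19.3 ± 2.31 FPKM in P1, and Mmp28, called epilysin, 2.91 ± 0.595 FPKM in P2 and 3.18 ± 0.610 FPKM in P1. The log2 changes were -0.13 ± 0.09 for Mmp23 (-0.05 without P1 replicate 1) and -0.10 ± 0.15 for Mmp28.

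Mmp11, a stromelysin activated inside the cell by furin, was at 6.72, 5.88 and 7.88 FPKM in P2, against 8.23, 9.35 and 7.86 FPKM in P1. Its ages overlapped by 1 library, and the log2 change was -0.28 ± 0.11 (limma, Benjamini-Hochberg adjusted p = 0.248). Its exons share 155 bases with Chchd10 on the opposite strand. Chchd10 was far more abundant, at 338 ± 32.7 FPKM in P2 and 291 ± 7.31 FPKM in P1. Without a statement that the counting used strand, fragments of the shared bases cannot be told apart.

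Of the 15 MMP genes below the filter, 9 form the cluster on chromosome 9 (7272514 to 7699585, GENCODE M21 on GRCm38). They are the collagenases Mmp13 and Mmp8, the collagenase-related Mmp1b, the stromelysins Mmp3 and Mmp10, the macrophage elastase Mmp12, the matrilysin Mmp7, the tooth enamel protease Mmp20, and Mmp27. Their mean levels ran from 0, for Mmp7 and Mmp20, to 0.217 FPKM for Mmp12. Mmp10, Mmp27 and Mmp1b were each above 0 in 1 of the 6 libraries. Outside the cluster, 7 of the 13 MMP genes passed the filter. Mmp19 was the member nearest below it, at 0.612, 0.724 and 0.686 FPKM in P2, against 0.924, 0.707 and 0.998 FPKM in P1. The exons of Mmp19 share 789 bases with Tmem198b on the opposite strand, which averaged 9.82 FPKM, and those of Mmp24 share 637 bases with BC029722 (12.8 FPKM), so fragments of these stretches cannot be told apart either. Mmp17 averaged 0.635 FPKM, Mmp21 and Mmp24 were below 0.1 FPKM, and Mmp9 and Mmp25 are described below.

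RefSeq promoter windows (GRCm38.p6), from 250 bases before to 50 bases after a gene's start, were matched for 35 of the 50 members, and the letters of the chromosome 9 cluster differed from those of the other members, whether or not these passed the filter. The AP-1 motif, TGANTCA, which is the same on both strands, was in a window of 7 of the 9 cluster genes, in 0 of the 20 matched members at 1 FPKM or more, and in 7.81% of all 32851 windows. TATAAA, on either strand, was in 8 of the 9 cluster genes, in 2 of those 20 members and in 13.6% of all windows. The GC motif GGGCGG, on either strand, was in 0 of the 9, in 17 of the 20 and in 35.7% of all windows. These counts are of genes, some with 2 windows, whereas the percentages are of windows. By window, AP-1, TATAAA and GGGCGG were in 7, 8 and 0 of the 11 cluster windows. In the 21 windows of members at 1 FPKM or more they were in 0, 2 and 17. Of the 6 matched members below the filter outside the cluster, 0 held the AP-1 motif, 1 held TATAAA and 5 held GGGCGG. The cluster genes arose by duplication, so they are not separate observations. Mmp15 and Mmp14, the highest MMP genes with a matched window, are printed beside Mmp13 and Mmp10 of the cluster, and Adamtsl4 is added as the called member. Each runs 5′ to 3′ along the gene's strand, and capitals mark the AP-1, TATA and GC letters on either strand, which do not overlap here.
Mmp15 (chr8:95352046-95352345, plus strand): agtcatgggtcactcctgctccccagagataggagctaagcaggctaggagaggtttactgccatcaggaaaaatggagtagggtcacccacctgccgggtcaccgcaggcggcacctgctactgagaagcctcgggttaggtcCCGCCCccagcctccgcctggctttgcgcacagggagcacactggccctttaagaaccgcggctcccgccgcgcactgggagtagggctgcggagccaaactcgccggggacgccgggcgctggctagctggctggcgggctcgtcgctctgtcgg
Mmp14 (chr14:54431348-54431647, plus strand): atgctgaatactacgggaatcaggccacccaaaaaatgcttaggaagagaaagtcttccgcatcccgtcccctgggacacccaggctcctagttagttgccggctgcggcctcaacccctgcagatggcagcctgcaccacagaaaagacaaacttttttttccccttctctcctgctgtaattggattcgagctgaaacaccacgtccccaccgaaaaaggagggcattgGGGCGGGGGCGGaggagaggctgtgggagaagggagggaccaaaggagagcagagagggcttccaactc
Mmp13 (chr9:7272264-7272563, plus strand): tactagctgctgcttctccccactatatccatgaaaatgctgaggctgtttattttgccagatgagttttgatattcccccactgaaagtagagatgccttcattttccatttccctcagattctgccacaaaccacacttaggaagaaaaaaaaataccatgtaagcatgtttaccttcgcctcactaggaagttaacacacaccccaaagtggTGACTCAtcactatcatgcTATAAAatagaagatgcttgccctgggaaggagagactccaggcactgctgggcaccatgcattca
Mmp10 (chr9:7502092-7502391, plus strand): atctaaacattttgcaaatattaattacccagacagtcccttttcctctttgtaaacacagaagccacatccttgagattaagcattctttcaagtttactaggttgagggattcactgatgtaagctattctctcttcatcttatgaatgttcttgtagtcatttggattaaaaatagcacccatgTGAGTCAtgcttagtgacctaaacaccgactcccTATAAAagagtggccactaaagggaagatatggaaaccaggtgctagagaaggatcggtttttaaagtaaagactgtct
Adamtsl4 (chr3:95687868-95688167, minus strand): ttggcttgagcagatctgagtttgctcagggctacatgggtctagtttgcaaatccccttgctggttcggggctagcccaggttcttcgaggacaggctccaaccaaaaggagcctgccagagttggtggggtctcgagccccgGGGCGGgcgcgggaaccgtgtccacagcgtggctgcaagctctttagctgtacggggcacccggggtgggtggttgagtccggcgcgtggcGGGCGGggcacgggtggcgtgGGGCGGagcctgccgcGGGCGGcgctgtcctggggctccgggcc

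In Mmp13 the AP-1 letters begin 35 bases before the start, in Mmp3 46 bases and in Mmp10 63 bases before it. In Mmp14 a pair of GC motifs adjoin each other, and the window of Adamtsl4 holds 4. The median number of CpG pairs per window was 1 over the 11 windows of the cluster, 22 over the 21 windows of members at 1 FPKM or more and 7 over all windows. Among members below the filter outside the cluster, Mmp24 (44 CpG pairs), Adamts20 (41), Adamts18 (22) and Mmp25 (18) lay above the median of all windows. Adamts13 and Mmp21, with 2 CpG pairs each, lay below it. A match of letters says nothing about binding, and no factor was measured here.

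**Figure D4:**
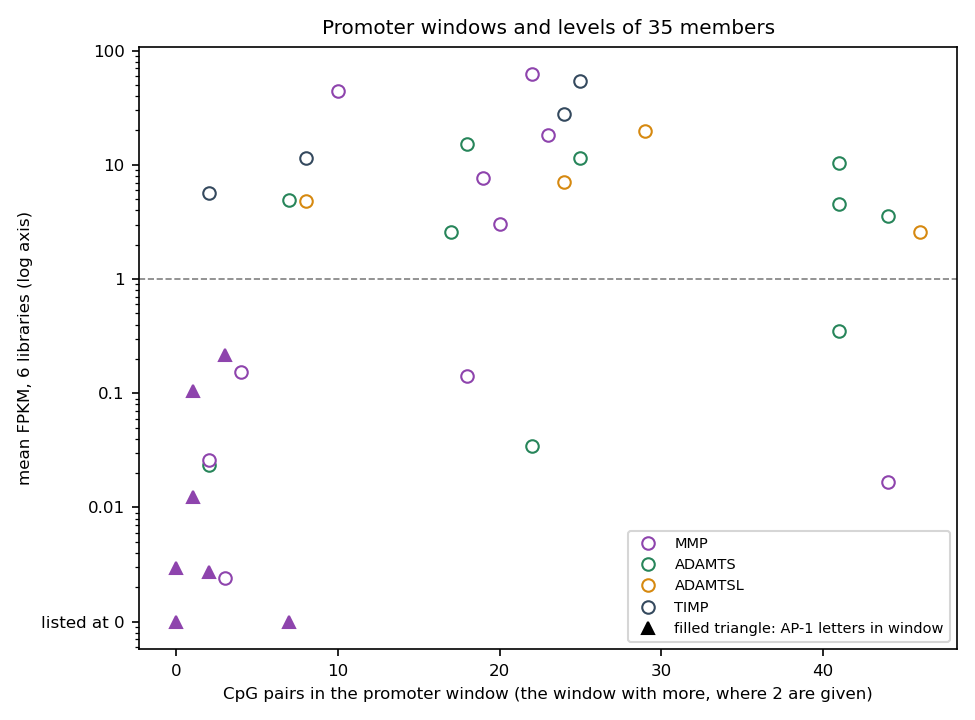
Mean FPKM over the 6 libraries (log axis, with genes listed at 0 at the bottom) against the number of CpG pairs in the promoter window (the window with more, where a gene has 2), for the 35 members with a window, coloured by family. Filled triangles, genes with the AP-1 letters in a window, are 7 MMP genes of chromosome 9, all below 1 FPKM and with at most 7 CpG pairs.

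Mmp9 and Mmp8 were lower in P2 at very low levels, and they are named after their values were seen, since both are below the filter. Mmp9, the gelatinase stored in neutrophil granules, was at 0.257, 0.160 and 0.211 FPKM in P2, against 0.356, 0.562 and 0.444 FPKM in P1. Mmp8, the neutrophil collagenase, was at 0.0972, 0.116 and 0.0633 FPKM in P2, against 0.141, 0.238 and 0.265 FPKM in P1. The ages did not overlap for either gene, with P2 below P1, as for 8.08% of the 24271 genes above 0 in any library. In the fit with no filter, in which 5.85% of these genes had an unadjusted p under 0.05 and a lower value in P2, both did too, and neither was called (limma, Benjamini-Hochberg adjusted p = 0.218 for Mmp9 and 0.274 for Mmp8). Mmp25, another MMP of neutrophils, did not follow them, at 0.129, 0.171 and 0.201 FPKM in P2, against 0.0610, 0.142 and 0.146 FPKM in P1.

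Neutrophil markers were also at a lower summed level in P2. The 9 listed markers summed to between 17.3 and 20.5 FPKM in P2 and between 22.1 and 43.8 FPKM in P1, with S100a8 and S100a9 the most abundant. Of the 4 that passed the filter all had negative log2 changes, none called, where 45.3% of all genes tested were lower. S100a9, a granulocyte calcium-binding protein, was at 5.77, 6.52 and 8.42 FPKM in P2, against 8.58, 13.9 and 14.8 FPKM in P1, without overlap. S100a8, its more abundant partner, was at 7.91, 11.1 and 9.22 FPKM in P2, against 9.62, 14.3 and 20.7 FPKM in P1, and overlapped between the ages, as did the granule gene Ngp. P1 replicate 1 had the lowest value among the P1 libraries for Mmp9, Mmp8 and S100a9 alike. The highest was in P1 replicate 2 for Mmp9 but in P1 replicate 3 for Mmp8 and S100a9. The primary granule genes Elane and Mpo were near 0 in both ages. Erythroid markers summed to between 754 and 952 FPKM in P2 and between 961 and 1358 FPKM in P1, and macrophage markers to between 35.8 and 39.5 FPKM in P2 and between 36.9 and 42.5 FPKM in P1. The part of these cells in the levels of Mmp9 and Mmp8 was not tested.

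**Figure D5:**
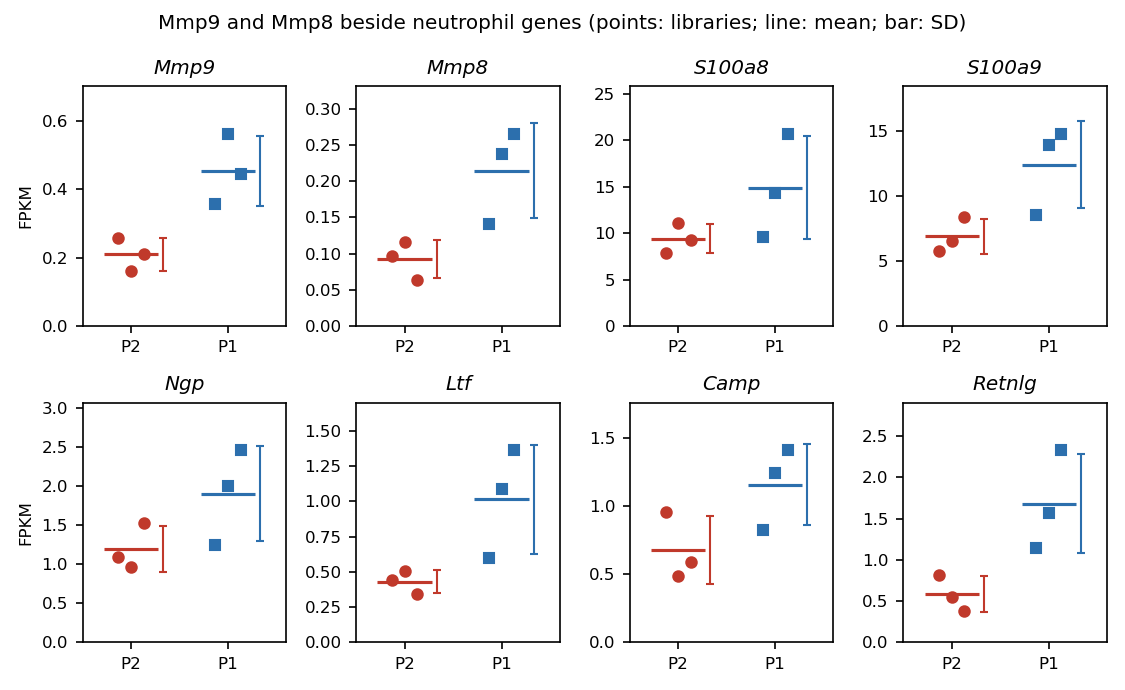
FPKM per library (points) with mean (line) and SD (bar, n = 3) for Mmp9, Mmp8 and 6 neutrophil genes, P2 in red left of P1 in blue, with axes that start at 0. All P2 libraries lie below all P1 libraries for Mmp9 and Mmp8, and the P1 libraries are the more spread out.

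All 4 TIMP genes passed the filter. Timp2, which inhibits MMPs and also takes part in the activation of the Mmp2 proform, was at 52.9, 54.0 and 56.2 FPKM in P2, against 53.6, 52.0 and 53.9 FPKM in P1. Timp1, which inhibits most secreted MMPs but is a poor inhibitor of membrane-type ones, was at 12.1, 11.4 and 11.3 FPKM in P2, against 12.1, 9.77 and 12.4 FPKM in P1. Both overlapped between the ages, with log2 changes of 0.03 ± 0.04 for Timp2 and 0.03 ± 0.09 for Timp1 that were negative with equal FPKM sums, and that of Timp2 also with quantile normalization. Timp4, the TIMP known for its high level in heart, was the least abundant of the 4 and the most variable. It was at 5.44, 6.01 and 4.34 FPKM in P2, against 5.42, 3.69 and 9.05 FPKM in P1, so that P1 held both the lowest and the highest library (log2 change -0.11 ± 0.28).

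Timp3 binds to the matrix and inhibits ADAMTS proteoglycanases and ADAM proteases as well as MMPs. It was at 24.2, 26.5 and 25.7 FPKM in P2, against 27.7, 28.0 and 34.5 FPKM in P1. All P2 libraries lay below all P1 libraries, P1 replicate 3 was above the rest, and the change was not called (log2 change -0.22 ± 0.09, and -0.12 without P1 replicate 3; limma, Benjamini-Hochberg adjusted p = 0.265). Timp3 lies inside the synapsin gene Syn3 on the opposite strand, and the exons of the 2 genes share 1733 bases. Syn3, known as a neuronal gene, was at 14.7, 15.2 and 15.4 FPKM in P2, against 17.7, 16.8 and 20.9 FPKM in P1 (log2 change -0.27 ± 0.08), with its highest value in the same library. Without strand, fragments of Timp3 and Syn3 cannot be told apart in the shared bases. Timp1 and Timp4 lie in the related genes Syn1 and Syn2, which were at 0.0690 and 0.581 FPKM on average and share 0 and 90 exon bases with them.

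The summed FPKM of the 22 MMP genes was 186, 182 and 194 in P2, against 207, 204 and 200 in P1, with Mmp15, Mmp2 and Mmp14 holding 82.6% of it. The P2 sums lay below the P1 sums, while the ages overlapped for each of the 7 tested MMP genes. The difference between the sums was not tested. TIMP sums were 94.7, 97.9 and 97.5 FPKM in P2, against 98.8, 93.4 and 110 FPKM in P1, and overlapped. ADAMTS sums were 102, 100.2 and 109 FPKM in P2, against 107, 98.7 and 104 FPKM in P1, also with overlap, and were spread over more genes: the 3 highest held 36.7%.

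Partners and substrates were read from lists chosen for their known roles. Of 24 tested genes for the activation, clearance and cell-surface partners of these enzymes, 0 were called by limma, 6 had an unadjusted p under 0.05 (25.0%, against 18.6% of all genes tested), and the median log2 change was 0.02. The proprotein convertases, which activate ADAMTS enzymes and membrane-type MMPs, had values in both directions: Furin averaged 27.6 ± 0.217 FPKM in P2 and 31.8 ± 1.93 FPKM in P1, and Pcsk6 11.7 ± 1.01 FPKM in P2 and 8.97 ± 0.461 FPKM in P1. The plasminogen activator Plat, the proteoglycan Sdc1 and the metalloprotease Adam9 had log2 changes of 0.10, 0.21 and 0.15, none called.

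Of 23 tested substrates, 0 were called by limma, 6 had an unadjusted p under 0.05 (26.1%), and the median log2 change was -0.03. Versican (Vcan), the main ADAMTS substrate of the heart, averaged 23.2 ± 2.49 FPKM in P2 and 21.7 ± 1.41 FPKM in P1, and aggrecan (Acan) was below the filter at both ages. Fbn1, the fibrillin to which ADAMTSL4 binds, averaged 43.6 ± 2.53 FPKM in P2 and 38.1 ± 2.87 FPKM in P1 (log2 change 0.19 ± 0.07; limma adjusted p = 0.234). The latent TGF-beta binder Ltbp1 had the most negative log2 change of the list, -0.41 ± 0.05 (limma adjusted p = 0.0582). Thbs1, Dcn, Lum and Nid1 had log2 changes of 0.30, 0.35, 0.30 and 0.16, none called. Fibroblast markers summed to between 1140 and 1315 FPKM in P2 and between 1048 and 1187 FPKM in P1, endothelial markers to between 891 and 928 FPKM in P2 and between 847 and 869 FPKM in P1, pericyte and smooth muscle markers to between 556 and 571 FPKM in P2 and between 528 and 678 FPKM in P1, and epicardial markers to between 54.1 and 62.4 FPKM in P2 and between 60.5 and 65.1 FPKM in P1.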

How the data were processed

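The values are FPKM as deposited by the authors, in a single table of 6 libraries. FastQC, TopHat2, Cuffdiff 2.2.1 and R 3.2 are named, without their roles, in the submitters' processing notes. Build, annotation, filters, strand use and scaling: not given in the sources used here. Gene identifiers were matched to GENCODE M21 (GRCm38), in which 37691 of 39171 had a symbol. Groups came from the sample titles.

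The test was limma 3.58.1 (R 4.3.3) on log2(FPKM + 1) with age as the factor, and a variance trend. P-values, two-sided, were Benjamini-Hochberg adjusted over all 13624 genes whose mean reached 1 FPKM, and called under 0.05. Since 3 libraries against 3 allow no exact permutation p under 0.10, no such test was run. The fit was tested on simulated data, with recovery required only for changes larger than that of any member. That test therefore does not bear on the members that were not called. Alternatives were another pseudocount, other filters, 3 scalings, no trend, the replicate number as a block and each library left out, plus 1 added after the data were seen. Every member that passed the filter was named, with values per library for those called or with an unadjusted p under 0.05, the TIMP genes, the 2 highest of each other family and those nearest the filter. The members and lists were chosen with earlier results of these data known. Motif letters were searched in RefSeq windows with Python 3.11.15. Some genes outside the families are not reported here.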

Additional observations from a re-analysis of the deposited data

How the results depend on the processing

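Of the 31 tested members, 17 kept their direction in all alternatives run. The calls over all genes were 10 higher and 12 lower. They were 18 and 22 with a pseudocount of 0.1, 11 and 11 with no filter, 17 and 24 with a mean of at least 5 FPKM, 39 and 2394 with equal FPKM sums, 8 and 14 with quantile normalization, 8 and 13 with median ratio scaling, 7 and 7 with no variance trend, and 49 and 62 with genes listed at 0 in any library left out. Without 1 library they ranged from 2 to 11 higher and from 2 to 8 lower. Adamtsl4 was the 1 member called, and 0 were called with no filter, with the replicate block or without any 1 library, 2 with genes listed at 0 left out, and 9 with equal FPKM sums. The members' median, -0.04, was -0.18 with equal FPKM sums and between -0.085 and 0.020 without 1 library. The cause of these shifts was not tested. With the replicate block the calls were 3 higher and 2 lower. Same-numbered libraries showed little shared deviation (correlations of -0.01, 0.10 and 0.01), though the 0.10 of replicate 2 was the highest among all P2 and P1 combinations. The labels tie the numbers to no litter or batch, and with so few libraries these correlations cannot exclude a pairing.

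With equal FPKM sums the values turned negative for Adamts1 (-0.069), Adamts19 (-0.085), Adamts4 (-0.057), Adamts7 (-0.151), Adamts8 (-0.1301), Adamtsl2 (-0.065), Timp1 (-0.133) and Timp2 (-0.136). Adamts7 was at -0.0084 and Adamts8 at -0.0113 with median ratio scaling. Quantile normalization gave -0.0057 for Adamts7, -0.0094 for Adamts8 and -0.0032 for Timp2. Without 1 library the sign changed for Adamts10 (-0.073 to 0.066), Adamts2 (-0.095 to 0.025), Adamts4 (-0.025 to 0.137), Adamts7 (-0.029 to 0.058), Adamts8 (-0.108 to 0.080), Adamtsl1 (-0.214 to 0.137), Adamtsl3 (-0.126 to 0.019), Mmp28 (-0.214 to 0.013), Timp1 (-0.074 to 0.083) and Timp4 (-0.367 to 0.181). Leaving out 1 library moved a further 11 members by over 1.5 times with no change of sign. The values nearest 0 were -0.017 for Mmp2, -0.047 for Mmp14, -0.058 for Mmp16, -0.053 for Mmp23, 0.058 for Adamts1, -0.056 for Adamts9, 0.030 for Adamts19, 0.018 for Adamtsl2, 0.049 for Adamtsl5, 0.009 for Timp2 and -0.124 for Timp3.

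The table holds no counts, so the counting error of members below 0.1 FPKM, and whether they are expressed, cannot be told.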

Other observations

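Ratios within a library do not depend on scaling between libraries, and the ones given here were chosen after the values were seen. Adamts5 over Adamts6 was 1.58, 1.30 and 1.13 in P2, against 0.582, 0.541 and 0.596 in P1, so the order of these 2 proteases by FPKM turned round between the ages in all libraries. They are the tested members with the largest increase and the largest decrease, neither called, so a wide shift of their ratio follows from the choice. Timp2 over Mmp14 was 1.26, 1.29 and 1.23 in P2, against 1.12, 1.18 and 1.20 in P1. Timp2 over Mmp2 was 0.953, 1.15 and 0.989 in P2, against 0.929, 0.934 and 0.943 in P1. The ages did not overlap for either ratio, and the gap was narrow for both. Of single genes tested, 25.0% are separated in this way, and no such share was computed for ratios. Mmp14 over Mmp2 and Timp3 over Mmp2, also computed, overlapped, while Adamts5 over Adamts1 and Adamts10 over Adamts6 did not. Summed TIMP over summed MMP FPKM was 0.510, 0.538 and 0.502 in P2, against 0.477, 0.459 and 0.549 in P1, and overlapped. Adamtsl4 over Adamtsl5 was 0.267, 0.253 and 0.336 in P2, against 0.441, 0.555 and 0.378 in P1. None of these ratios was tested.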
